A study of Mus musculus with 66 samples.

Results

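The genes described here are the mouse genes whose symbol is Zfp followed by digits only and that were chosen by their 3′READS level in C2C12 cells, a mouse myoblast line: a mean of 20 reads or more over the libraries. 3′READS is a sequencing method in which each read marks the poly(A) end of one RNA (a poly(A) site), so a gene's level is the sum of reads over its sites. Of 307 such symbols with any sense read, 205 reached the mean and 102 did not. They were 2.03% of the 10117 genes over that mean and came from 15777 genes listed with sense reads. The mean was taken over all 7 libraries, and 24 of the 205 would not have reached it on the siCtrl libraries alone. RNA-seq gene counts, which hold reads in the coding region of protein-coding genes, were listed for 95 of the 205 and not for the other 110.

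Small interfering RNA was given at 50 nM, with transfection over 48 h: a control one (siCtrl, labelled siNS), or one against Paf1 (siPaf1), Cdc73 (siCdc73) or Ski8 (siSki8, whose gene is listed as Wdr61). siCtrl, siPaf1 and siCdc73 had 1 library in batch 1 and 1 in batch 2 for each assay, and siSki8 had 1 library, in batch 2. Batch stands here for the number, 1 or 2, that ends each library title, and the titles do not say what it marks. All groups were the same transfected line, so none is free of transfection. The labels do not say whether the batches were separate cultures. The p-values therefore measure the spread between these libraries, and those for siSki8 assume that its single library varied as the other groups did. Chromatin immunoprecipitation samples of the series were not analysed here.

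Zinc finger proteins of the C2H2 kind hold tandem fingers, each folded around a zinc ion by a pair of cysteines and a pair of histidines, and neighbouring fingers together read a DNA sequence. Many mouse members also carry a KRAB domain, which recruits Trim28 and, through it, Setdb1 and heterochromatin proteins to silence retroelements and imprinted regions. These genes lie in clusters, have arisen largely by tandem duplication, and often code for all their fingers in a single long last exon. Other genes named Zfp encode proteins that bind RNA or act on ribosomes or the spindle. Paf1, Cdc73 and Ski8 belong to the Paf1 complex, which travels with RNA polymerase II and acts on elongation, histone modification and 3′ end formation. An intronic poly(A) site ends a transcript before its last exon, so a site ahead of the finger exon leaves an RNA without the finger coding region.

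Gene models of mm9 were matched for 204 of the 205 genes; Zfp862 was not matched. A search of the coded proteins for a C2H2 finger pattern and a KRAB pattern gave 69 genes with both, 129 with fingers and no KRAB pattern, and 6 with neither. The 6 were Zfp36, Zfp259, Zfp330, Zfp365, Zfp503 and Zfp703. A gene without a match lacks only these letters, and the KRAB pattern misses some known KRAB domains. KRAB genes had a median of 12 fingers (range 2 to 23), and the genes with fingers and no KRAB pattern had a median of 8 (range 1 to 36, the most in Zfp142). All fingers lay in the last exon in 68 of the 69 KRAB genes and in 68 of the 129 others. The last exon held a median of 86.0% of coding bases in KRAB genes and 56.7% in genes with fingers alone, against 10.7% over all gene models past the same read threshold. Chromosome 7 carried 51 of the 205 genes (24.9%) and 7.17% of all genes over threshold, and chromosome 17 carried 20 (9.76%) against 4.70%.

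**Figure D1:**
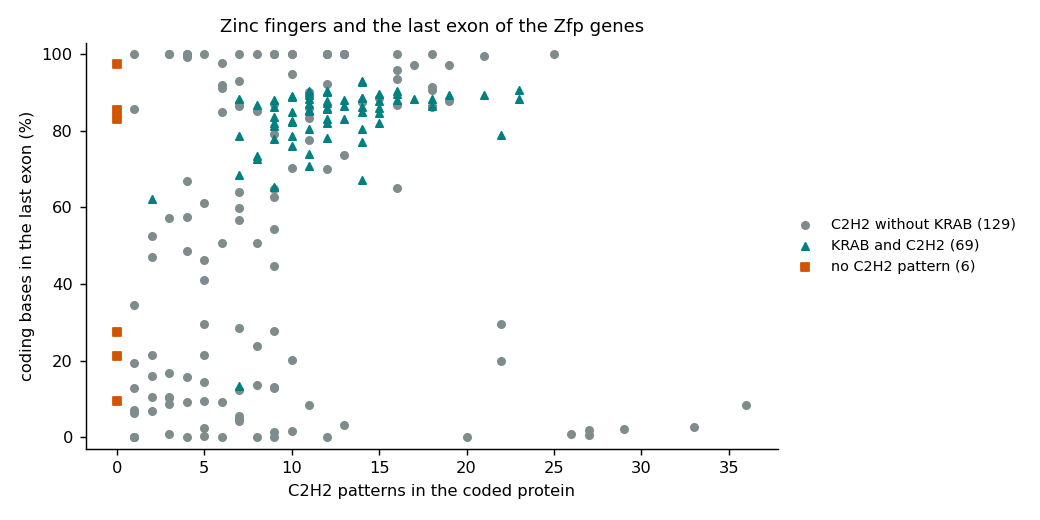
Each point is one Zfp gene, with the number of C2H2 patterns in its protein on the x axis and the percent of its coding bases that lie in the last exon on the y axis; colours and marker shapes give the 3 classes. KRAB genes (69) sit mostly near the top, with a median of 86.0%, and the genes with fingers and no KRAB pattern (129) spread over the whole y axis, with a median of 56.7%.

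The 205 genes used 793 sites in their 3′ exons, 219 in introns and 5 in internal exons. Sites holding at least 5% of their gene's reads numbered 451, 50 and 1. At least 2 such 3′UTR sites were present in 135 genes (65.9%), against 48.1% of all genes over threshold, and the mean number was 2.2 against 1.78. The 2 most used 3′UTR sites lay a median of 861 bases apart, against 670 bases over all genes. The poly(A) signal AATAAA lay in the 40 bases before 53.7% of the 3′ exon sites, and ATTAAA without AATAAA lay before another 16.4% (55.2% and 16.9% over all genes). Intronic sites at or above 5% occurred in 40 of the 205 genes (19.5%, against 19.1% of all genes), and 40 of these 50 sites lay before the codons of the first finger and 8 of the 50 lay in a first intron. In the gene models used here, 48 of the 50 lay in an intron. The rest lay ahead of the start of the model and are counted among the 40.

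The following sites are those on which the later results turn, shown because each pair sets a site nearer the gene's start against the one farther on. Each line gives the last 30 bases up to the site in mm9, 5′ to 3′ on the gene's strand, with AATAAA or ATTAAA in capitals where it was found.
Zfp52, intronic site, intron 2 of 4, chr17:21675817-21675846, plus strand: aggaggcAATAAActtttgcttgactatga
Zfp52, 3′ exon site, chr17:21700284-21700313, plus strand: tacacaATTAAActgatcatcgtggcaaaa
Zfp410, intronic site, intron 8 of 11, chr12:85676359-85676388, plus strand: aacgcaagttaAATAAAatgctttttatta
Zfp410, 3′ exon site, chr12:85684641-85684670, plus strand: gttttccttttaAATAAAcaaaacaaccta
Zfp871, proximal 3′UTR site, chr17:32909770-32909799, minus strand: tgccagtccacataaatgtctttaaatgca
Zfp871, distal 3′UTR site, chr17:32902441-32902470, minus strand: taaatctcAATAAAatcatggttctccaaa
Zfp503, proximal 3′UTR site, chr14:22803623-22803652, minus strand: agtataAATAAAaacaaagccgctacagaa
Zfp503, distal 3′UTR site, chr14:22803184-22803213, minus strand: atttgatgtATTAAAaggttttacttctta
Zfp609, proximal 3′UTR site, chr9:65543262-65543291, minus strand: tttgcaaaaatatttattctctcagccaca
Zfp609, distal 3′UTR site, chr9:65539387-65539416, minus strand: tgAATAAAgtttttaatgtccctgttatta
Zfp260, proximal 3′UTR site, chr7:30892013-30892042, plus strand: gcgtaaatttgAATAAAaccaacttaccaa
Zfp260, distal 3′UTR site, chr7:30892612-30892641, plus strand: ctAATAAAttttggaaaagtcctgtcctga
The proximal sites of Zfp871 and Zfp609 held neither signal in these 30 bases, while their distal sites held AATAAA. Both sites of Zfp260 and of Zfp410 held AATAAA.

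Most of these genes were read at low levels. The mean over libraries ran from 20.7 to 3937 reads per gene with a median of 74.7, against a median of 180 over all genes past the threshold. Zfp706 (3937 reads), Zfp622 (3135), Zfp330 (2682), Zfp513 (1284) and Zfp207 (1205) together held 30.8% of the reads of the 205 genes. Just inside the threshold were Zfp707 and Zfp40 (20.7 reads each) and Zfp617 (20.9), and just outside it Zfp956 (19.1), Zfp738 (18.9) and Zfp940 (18.6). Zfp707 had 24 and 16 reads in siCtrl, 30 and 29 in siPaf1, 12 and 17 in siCdc73 and 17 in siSki8, which shows how few reads stand behind the lowest members. RPKM are reads scaled to gene length and library size. In RPKM, the 95 genes in the RNA-seq table had a median of 6.47 in siCtrl. The median was 17.0 RPKM over the 5645 genes of that table with a mean of at least 20 RNA-seq counts per library. The 95 genes were held to a minimum in 3′READS alone, and some, such as Zfp423, fall under that RNA-seq minimum. The comparison therefore leans toward lower levels for the Zfp genes. The RPKM levels of the 95 ran from 0.144 to 87.4, and 78 of 95 (82.1%) lay under the median of the 5645 genes. The highest RPKM levels were those of Zfp207 (87.4), which binds microtubules and the spindle checkpoint protein Bub3, and Zfp330 (62.9), a nucleolar protein. Zfp68 (41.2 RPKM), Zfp639 (35.8) and Zfp365 (31.5) followed, a set named after its values were seen.

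The libraries held 5302728 to 14340927 3′READS reads and 2796693 to 8160386 RNA-seq counts. The targeted gene was low where it was targeted. Paf1 had 19.5 and 16.8 CPM, reads scaled to the size of the library, in siCtrl in 3′READS and 2.97 and 2.84 in siPaf1. Cdc73 had 6.45 and 10.1 CPM in siCtrl and 0.651 and 3.19 in siCdc73, and Wdr61 had 7.20 and 20.7 CPM in siCtrl and 1.37 in siSki8. Paf1 was higher in siCdc73 than in siCtrl, with 41.0 and 35.8 CPM in 3′READS (1.07 on the log2 scale, adjusted p = 0.015 in edgeR with batch as a block) and 264 and 418 CPM against 107 and 160 in RNA-seq (1.34, adjusted p = 2.9e-05). Myod1, the defining regulator of myoblasts, had at most 8 reads in any 3′READS library, whereas the myoblast markers Myf5, Des and Cdh15 were read in all. Some muscle genes differed between the groups in 3′READS too. Cdh15, a myoblast cadherin, had 89.6 and 707 CPM in siCtrl, 46.0 and 350 in siPaf1, 32.1 and 130 in siCdc73 and 377 in siSki8. Cdon, a myoblast surface receptor, had 272 and 198 CPM in siCtrl, 538 and 691 in siPaf1, 126 and 101 in siCdc73 and 134 in siSki8. Myh3, an embryonic myosin of myotubes, had 48.4 and 52.0 CPM in siCtrl, 62.8 and 190 in siPaf1, 11.2 and 30 in siCdc73 and 62.8 in siSki8. Cdon and Myh3 were thus highest in siPaf1 and lowest in siCdc73 within each batch, as were Des and the myotube marker Acta1. Cdh15 was lower in both knockdowns than in siCtrl of the same batch. Other markers did not follow these orders. Myf5 was higher in siCdc73 than in siCtrl of the same batch in both assays. Its RNA-seq levels were 60.2 and 64.6 CPM in siCtrl and 80.1 and 95.5 in siCdc73. The myotube marker Myog was above siCtrl in siPaf1 batch 1 and below it in siPaf1 batch 2 in 3′READS. Vim differed little from siCtrl of the same batch in siPaf1 and siCdc73 there. The epithelial keratin gene Krt8 moved with siCdc73, with 0.0 and 0.102 CPM in siCtrl, 0.641 and 0.150 in siPaf1, 6.62 and 14.5 in siCdc73 and 0.966 in siSki8 in 3′READS, and the part of the differences in muscle genes and Krt8 in the results that follow was not tested. In these bulk libraries, fewer cells of a type and less RNA per cell cannot be told apart.

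The 205 genes took a larger share of all reads in siPaf1 than in the other groups. Their share of sense 3′READS reads was 0.322% and 0.365% in siCtrl, 0.461% and 0.514% in siPaf1, 0.348% and 0.440% in siCdc73, and 0.396% in siSki8, in the order of batch 1 and batch 2. The share of RNA-seq counts in the 95 listed genes was 0.480% and 0.383% in siCtrl, 0.552% and 0.591% in siPaf1, 0.457% and 0.341% in siCdc73, and 0.401% in siSki8. In both assays both siPaf1 libraries lay above every other library, and the siCdc73 and siCtrl libraries overlapped. In the comparisons that follow, siPaf1, siCdc73 and siSki8 were each set against the same siCtrl libraries, so these comparisons are not independent of one another.

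In siPaf1, more of the Zfp genes had higher than lower levels. The median log2 difference from siCtrl over the 205 genes was 0.40 in 3′READS, against 0.06 over all 12579 genes tested, and 139 of the 205 differences were above 0. Batch 1 alone gave a median of 0.31 and batch 2 alone 0.43. Over the 95 genes in RNA-seq the median was 0.35, against 0.01 over 6521 genes, with 69 above 0 and batch medians of 0.18 and 0.50. Scaling by library size alone, without the trimmed mean of M values (TMM), moved the 3′READS median over all genes to 0.16 and that of the 205 genes to 0.51. For the 181 genes that reached the read threshold in siCtrl alone, the 3′READS median was 0.33.

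No single Zfp gene passed an adjusted p of 0.05 in edgeR's quasi-likelihood test without a batch term, in either assay and in any comparison, where 0.0% of all genes passed too. In siPaf1, an unadjusted p under 0.05 was reached by 24 Zfp genes upwards and 5 downwards in 3′READS (7.08% and 6.46% of all genes tested) and by 8 and 2 in RNA-seq (8.77% and 8.96%). DESeq2 called 3 up and 1 down in 3′READS (2.09% and 1.7% of all genes with an adjusted p) and 1 and 1 in RNA-seq (2.33% and 3.06%). Libraries of one batch deviated together, and the same test with batch as a replicate block was used for calls: rose and fell mean here an adjusted p under 0.05 in that blocked edgeR fit. In 3′READS, 32 of the 205 genes rose in siPaf1 (15.6%, with 9.74% of all genes tested) and 8 fell (3.90%, with 9.08%). RNA-seq gave 25 of 95 that rose (26.3%, with 16.3%) and 4 that fell (4.21%, with 16.2%). The counts with a library left out, which follow, carry no share of all genes and show only how far the calls depend on it. The counts rested on few libraries: without siCtrl batch 2, 5 rose and 2 fell in 3′READS and 9 rose and 1 fell in RNA-seq. The RNA-seq counts were 10 and 2 when siCtrl batch 1 was left out, and 12 and 4 when siPaf1 batch 2 was.

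By class, 10 of the 69 KRAB genes rose in siPaf1 and 3 fell in 3′READS, with a median of 0.53 in the blocked fit. Of all genes tested 9.74% rose and 9.08% fell, with a median of 0.075 in that fit. Of the 129 genes with fingers and no KRAB pattern, 18 rose and 5 fell, with a median of 0.33. Among the 6 genes with neither pattern 4 rose and none fell, with a median of 0.97. For comparison, 119 other genes with 3 or more C2H2 patterns had 15 that rose, 9 that fell and a median of 0.23. In RNA-seq, 8 of 30 KRAB genes and 16 of 61 genes with fingers alone rose, and 0 and 4 fell (16.3% of all genes rose and 16.2% fell).

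**Figure D2:**
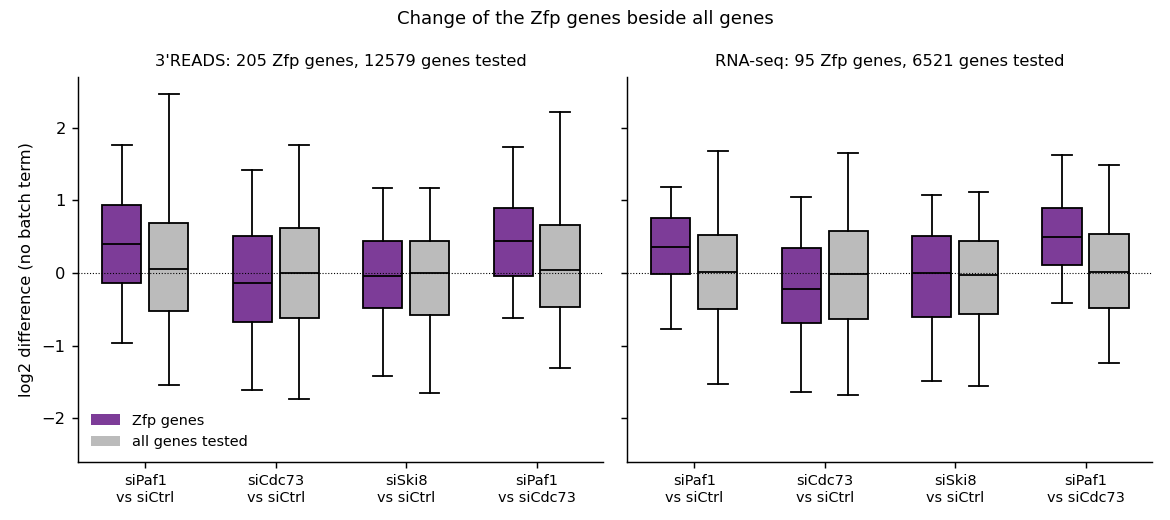
The log2 difference of each comparison, from the fit without a batch term, is on the y axis for the Zfp genes (purple) and all genes tested (grey); boxes span the quartiles with the median marked, and whiskers reach from the 5th to the 95th percentile, with 3′READS on the left and RNA-seq on the right. The purple medians lie above the grey ones for siPaf1 (0.40 and 0.35) and for siPaf1 against siCdc73 (0.44 and 0.50), and below them for siCdc73 (-0.13 and -0.21).

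The members that rose in siPaf1 with the smallest p were Zfp2, Zfp410, Zfp260, Zfp329 and Zfp334 in 3′READS. Zfp260, a finger protein known as a regulator of cardiac genes (chr7:30879813-30892641 of mm9, 3 exons), had 13.8 and 10.2 CPM in siCtrl, 46.3 and 44.6 in siPaf1, 21.5 and 37.1 in siCdc73 and 27.3 in siSki8. The siCtrl libraries were the lowest and the siPaf1 libraries the highest, and siPaf1 overlapped no other group. Its log2 difference was 1.91 ± 0.33 (SE, blocked fit; adjusted p = 0.00097) in siPaf1, 1.28 ± 0.33 (0.011) in siCdc73, and 1.12 ± 0.41 (adjusted p = 0.28) in siSki8. Its RNA-seq levels were 23.1 and 17.5 CPM in siCtrl, 73.6 and 44.0 in siPaf1, 40.6 and 21.1 in siCdc73 and 26.2 in siSki8. There it rose by 1.49 ± 0.28 in siPaf1 (adjusted p = 1.0e-04), while the siCdc73 libraries overlapped siCtrl batch 1 (0.55, adjusted p = 0.11).

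Zfp410, known as an activator of Chd4, which encodes a remodeller of the NuRD complex, had 5.40 and 10.9 CPM in siCtrl and 18.6 and 61.8 in siPaf1 in 3′READS. It had 13.9 and 19.4 CPM in siCdc73 and 12.7 in siSki8, so every knockdown library lay above both siCtrl libraries. The difference was 2.17 ± 0.35 in siPaf1 (adjusted p = 0.00058) and 1.07 in siCdc73 (adjusted p = 0.038). RNA-seq gave 95 and 90.5 CPM in siCtrl and 193 and 228 in siPaf1, a rise of 1.17 ± 0.23 (adjusted p = 0.00025), and 108 and 120 CPM in siCdc73.

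Zfp2 had 52.1 and 23.4 CPM in siCtrl, 235 and 94.9 in siPaf1, 54.9 and 51.1 in siCdc73 and 69.3 in siSki8. Both siPaf1 libraries were the highest of their batch, and the rise was 2.10 ± 0.32 (adjusted p = 0.0004). Zfp329 had 10.1 and 6.90 CPM in siCtrl, 26.2 and 27.8 in siPaf1, and 6.46 to 9.34 in the siCdc73 and siSki8 libraries. The siPaf1 libraries stood above all others, by 1.68 ± 0.33 over siCtrl (adjusted p = 0.0026) and by 1.79 ± 0.33 over siCdc73 (adjusted p = 0.0028). Zfp334 had 40.7 and 15.1 CPM in siCtrl and 91.4 and 50.9 in siPaf1, a rise of 1.44 ± 0.29 (adjusted p = 0.0028) that was lost without siCtrl batch 2. These 3 genes were not listed in the RNA-seq table. There, Zfp146, a protein of little besides its fingers, had 31.9 and 30.4 CPM in siCtrl, 77.2 and 72.6 in siPaf1, 26.9 and 20.4 in siCdc73 and 72.5 in siSki8. The siPaf1 and siSki8 libraries of Zfp146 lay close together and apart from the rest, with rises of 1.25 ± 0.26 (adjusted p = 0.00037) and 1.30 ± 0.32 (adjusted p = 0.014). Zfp7 rose by 1.20 (adjusted p = 0.00049) and Zfp821 by 1.11 (adjusted p = 0.0012) in siPaf1 in RNA-seq, the latter not without siCtrl batch 2.

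Those that fell in siPaf1 with the smallest p in 3′READS were Zfp597, Zfp277, Zfp759, Zfp367 and Zfp324. Zfp597 had 27.5 and 23.8 CPM in siCtrl, 6.71 and 8.40 in siPaf1, 3.69 and 5.68 in siCdc73 and 16.2 in siSki8. The siPaf1 and siCdc73 libraries all lay under both siCtrl libraries, with differences of -1.74 ± 0.34 (adjusted p = 0.0022) and -2.39 ± 0.35 (adjusted p = 0.00033). Zfp277, a finger protein known to act with Polycomb at the Ink4a/Arf locus, had 31.2 and 49.3 CPM in siCtrl, 12.3 and 21.2 in siPaf1 and 8.47 and 19.9 in siCdc73. Its differences were -1.27 ± 0.29 (adjusted p = 0.0067) and -1.54 ± 0.30 (adjusted p = 0.002), again without overlap. Zfp759 had 27.2 and 13.3 CPM in siCtrl and 10.2 and 6.55 in siPaf1 (-1.20, adjusted p = 0.018). The calls of Zfp277, Zfp324 and Zfp759 in siPaf1 were lost when siCtrl batch 1 was left out, those of Zfp324, Zfp367 and Zfp759 when siCtrl batch 2 was, that of Zfp324 without siPaf1 batch 1 and that of Zfp367 without siPaf1 batch 2.

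Zfp367, a transcription factor first described in erythroid cells, was the member with the smallest p in RNA-seq in both knockdowns. Its RNA-seq levels were 33.5 and 31.6 CPM in siCtrl, 6.04 and 3.84 in siPaf1, 8.05 and 4.15 in siCdc73 and 25.5 in siSki8. The siPaf1 and siCdc73 libraries lay far under the other 3, with differences of -2.64 ± 0.35 (adjusted p = 9e-07) and -2.35 ± 0.34 (adjusted p = 2.7e-06); without the batch term the adjusted p values were 0.083 and 0.074. In 3′READS it was read rarely, with 4.2 and 7.28 CPM in siCtrl and 0.497 to 1.52 CPM in the 4 siPaf1 and siCdc73 libraries, and it fell in both (-2.11 ± 0.60, adjusted p = 0.023, and -2.47 ± 0.65, adjusted p = 0.013). In RNA-seq, Zfp60 fell in both as well (-1.17, adjusted p = 0.0031, and -1.68, adjusted p = 6.1e-05), and so did Zfp511 (-0.92, adjusted p = 0.0076, and -1.08, adjusted p = 0.0016). Without siCtrl batch 2 neither was called in siPaf1, and without siCtrl batch 1 Zfp511 was not.

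**Figure D3:**
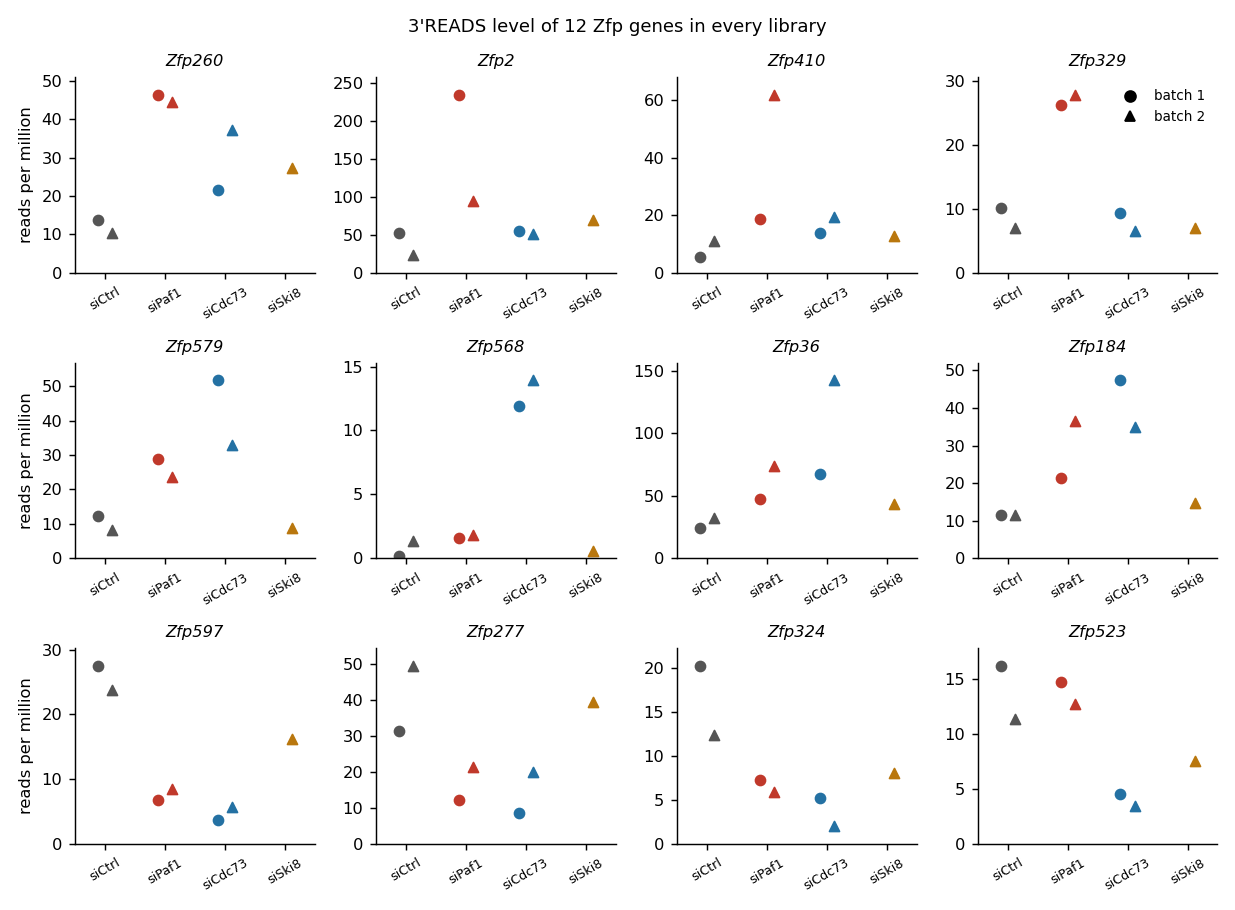
The 3′READS level of 12 Zfp genes, in CPM on a y axis from 0, is shown for every library, by group on the x axis; circles are batch 1 and triangles batch 2, and each point is 1 library. Zfp260, Zfp2 and Zfp410 are highest in siPaf1 within each batch (46.3 and 44.6 CPM for Zfp260), Zfp568 and Zfp579 in siCdc73, and Zfp597, Zfp277 and Zfp324 are lower in siPaf1 and siCdc73 than in siCtrl.

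In siCdc73 the Zfp genes did not lean upwards. The 3′READS median was -0.13, against 0.00 over all genes tested, with 88 of 205 above 0 and batch medians of -0.20 and -0.12. The RNA-seq median was -0.21, against -0.02, with 33 of 95 above 0 and batch medians of -0.14 and -0.31. Without siCtrl batch 1 and without a batch term these medians were 0.03 and 0.05. In the blocked fit 22 of 205 rose (10.7%, with 10.8% of all genes tested) and 23 fell (11.2%, with 11.8%), shares close to those of all genes. RNA-seq had 10 of 95 that rose (10.5%, with 19.4%) and 22 that fell (23.2%, with 20.5%). Without the batch term edgeR called none, and an unadjusted p under 0.05 was reached by 13 up and 19 down in 3′READS (6.92% and 8.42% of all genes) and 4 up and 9 down in RNA-seq (9.94% and 11.2%). DESeq2 called 7 up and 4 down in 3′READS (2.8% and 2.93% of all genes) and 1 and 5 in RNA-seq (3.78% and 4.36%). Under library size alone the blocked counts were 16 up and 28 down in 3′READS and 6 up and 27 down in RNA-seq. These counts, and those with a library left out that follow, carry no share of all genes. They show only how the calls depend on the setting.

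The siCdc73 counts in 3′READS were 13 up and 11 down with siCtrl batch 1 left out, 7 and 10 with siCtrl batch 2 left out, and 12 and 9 with siCdc73 batch 2 left out. In RNA-seq the counts with a library left out were 6 and 10 (siCtrl batch 1), 5 and 12 (siCtrl batch 2), 3 and 10 (siCdc73 batch 1) and 7 and 8 (siCdc73 batch 2). By class, with all libraries, 6 of 69 KRAB genes rose and 6 fell in 3′READS, as did 13 and 16 of the 129 genes with fingers alone. Of the 6 with neither, 3 rose and 0 fell. Of all genes tested 10.8% rose and 11.8% fell.

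Zfp568, a KRAB protein known to silence a placental transcript of Igf2, had the highest rise in siCdc73. Its 3′READS levels were 0.150 and 1.32 CPM in siCtrl, 1.55 and 1.79 in siPaf1, 11.9 and 13.9 in siCdc73 and 0.569 in siSki8. The siCdc73 libraries lay far above all others, by 3.79 ± 0.57 over siCtrl (adjusted p = 0.00038), while siPaf1 differed by 0.96 (adjusted p = 0.25). Most of these reads lay at intronic sites, with 0 of 1 and 10 of 14 reads in siCtrl, 12 of 12 and 12 of 27 in siPaf1, 49 of 55 and 166 of 196 in siCdc73 and 3 of 5 in siSki8. RNA-seq counts of Zfp568 were higher in all libraries, at 71.0 and 30.4 CPM in siCtrl, 45.0 and 25.5 in siPaf1, 106 and 47.9 in siCdc73 and 22.7 in siSki8, and followed the batches. There, in reads of the coding region, siCdc73 differed by 0.61 (adjusted p = 0.055).

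Zfp579 had 12.3 and 8.22 CPM in siCtrl, 28.8 and 23.5 in siPaf1, 51.7 and 32.9 in siCdc73 and 8.76 in siSki8. It rose by 2.01 ± 0.30 in siCdc73 (adjusted p = 0.00034) and by 1.36 in siPaf1 (adjusted p = 0.0051). Zfp36, which encodes tristetraprolin, a CCCH protein that binds AU-rich elements and speeds mRNA decay, had 24.3 and 32.4 CPM in siCtrl, 47.4 and 73.3 in siPaf1, 67.1 and 142 in siCdc73 and 43.1 in siSki8. All 5 knockdown libraries were above both siCtrl libraries, and the rise was 1.81 ± 0.29 in siCdc73 (adjusted p = 0.00054) and 1.06 in siPaf1 (adjusted p = 0.017). In RNA-seq Zfp36 rose as well, by 1.33 ± 0.28 (adjusted p = 0.00041) and 1.04 (adjusted p = 0.0057), with 15.9 CPM in siSki8 beside 15.4 and 18.3 in siCtrl. Zfp184 rose by 1.81 ± 0.33 in siCdc73 (adjusted p = 0.0014) from 11.6 and 11.5 CPM to 47.3 and 34.9. Zfp655 rose by 1.47 (adjusted p = 0.0015) from 29.4 and 24.5 CPM to 75.6 and 74.1.

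Falls in siCdc73 included members that also differed between siPaf1 and siCdc73. Zfp523, a relative of the Staf factor Zfp143 and the mouse counterpart of ZNF76, had 16.2 and 11.3 CPM in siCtrl, 14.7 and 12.8 in siPaf1, 4.56 and 3.48 in siCdc73 and 7.51 in siSki8. The siPaf1 libraries lay between the siCtrl ones and the siCdc73 libraries under all, a fall of 1.72 on the log2 scale (SE 0.36, adjusted p = 0.0031). In RNA-seq Zfp523 had 34.8 and 31.6 CPM in siCtrl, 36.1 and 34.9 in siPaf1 and 13.9 and 9.89 in siCdc73 (-1.44, adjusted p = 0.00026). Its siPaf1 over siCdc73 difference was 1.74 ± 0.35 (adjusted p = 0.0049) in 3′READS and 1.54 ± 0.30 (adjusted p = 0.00033) in RNA-seq. Zfp628 had 64.1 and 59.0 CPM in siCtrl, 44.6 and 60.7 in siPaf1 and 20.9 and 17.6 in siCdc73 in RNA-seq, a difference of -1.65 ± 0.28 (adjusted p = 2.1e-05), with siPaf1 over siCdc73 at 1.41 (adjusted p = 0.00042). Zfp651 had 30.3 and 14.6 CPM in siCtrl, 23.2 and 15.4 in siPaf1 and 6.04 and 5.43 in siCdc73 (-1.89 ± 0.35, adjusted p = 8.7e-05). Zfp324 fell by 2.22 (SE 0.39, adjusted p = 0.0011) and Zfp414 by 1.88 (adjusted p = 0.00072) in siCdc73 in 3′READS. All 10 members named in 3′READS for siCdc73 were called when any single siCtrl or siCdc73 library was left out.

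In siSki8 the median was -0.04 over the 205 genes in 3′READS (0.03 with the batch term) and -0.00 over the 95 in RNA-seq (0.15 with it), so its sign followed the fit. No Zfp gene was called in 3′READS by either edgeR fit or by DESeq2 (0.0795% of all genes rose and 0.0715% fell in the blocked fit), and an unadjusted p under 0.05 was reached by 10 up and 6 down in the blocked fit (5.75% and 5.89% of all genes). RNA-seq had 4 that rose (4.21%, with 2.93% of all genes) and 1 that fell (1.05%, with 2.5%), and under library size alone 2 rose and 3 fell. Beside Zfp146, these were Zfp35 (1.27 ± 0.32, adjusted p = 0.016), with 317 CPM against 97.3 and 122 in siCtrl and 266 in siPaf1 batch 2, and Zfp184, Zfp946 and Zfp30. Zfp184 rose by 1.64 (adjusted p = 0.044) and Zfp946 by 1.35 (adjusted p = 0.044), and Zfp30 fell by 1.52 (adjusted p = 0.048). These calls rested on single libraries: without siCtrl batch 1 only Zfp35 of the 5 was called, without siCtrl batch 2 only Zfp184, without siCdc73 batch 2 only Zfp146, and without siCdc73 batch 1 none. Without either siPaf1 library all 5 were called, among 14 members that rose and 2 that fell.

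The comparison of siPaf1 with siCdc73 uses no siCtrl library and was added after the other comparisons had been seen. The median log2 difference (siPaf1 over siCdc73) was 0.44 over the 205 genes in 3′READS, against 0.05 over all genes tested, with 149 above 0 and batch medians of 0.43 and 0.41. Over the 95 genes in RNA-seq it was 0.50, against 0.02, with 77 above 0 and batch medians of 0.38 and 0.75. Without the batch term no gene was called, and an unadjusted p under 0.05 was reached by 28 members higher and 1 lower in siPaf1 in 3′READS (6.03% and 4.29% of all genes) and by 19 and 0 in RNA-seq (6.95% and 6.23%). In the blocked fit 33 of 205 were higher in siPaf1 (16.1%, with 8.08% of all genes) and 2 were lower (0.976%, with 6.3%). RNA-seq gave 30 of 95 higher (31.6%, with 14.6%) and 3 lower (3.16%, with 13.6%). Of the 15 and 30 genes that were higher in 3′READS and in RNA-seq among the 95 listed in both, 13 were shared, which is 86.7% of the first list and 43.3% of the second. This overlap was not set beside that of all genes. By class, 11 of 69 KRAB genes and 21 of 129 genes with fingers alone were higher in siPaf1 in 3′READS, and 1 of each was lower; among 119 other genes with 3 or more C2H2 patterns 8 were higher and 3 lower.

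**Figure D4:**
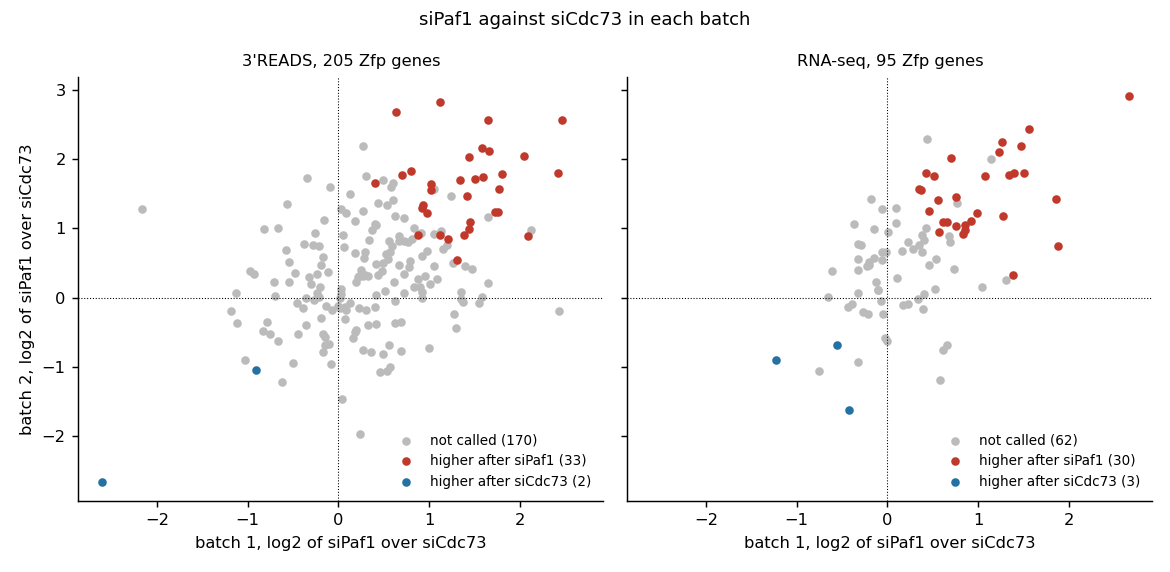
Each point is one Zfp gene, with the log2 ratio of siPaf1 over siCdc73 in batch 1 on the x axis and in batch 2 on the y axis, for 3′READS (205 genes, left) and RNA-seq (95 genes, right); colours mark the genes called higher or lower in siPaf1 by the fit with the batch term. Most points lie right of and above the dotted zero lines, with batch medians of 0.43 and 0.41 on the left and 0.38 and 0.75 on the right.

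Zfp423, a many-fingered partner of early B-cell factor known from preadipocyte commitment, was among the largest of these differences. It had 1.65 and 0.851 CPM in siCtrl, 8.26 and 6.68 in siPaf1, 1.09 and 0.710 in siCdc73 and 0.455 in siSki8 in 3′READS. In RNA-seq it had 1.82 and 1.01 CPM in siCtrl, 4.60 and 8.03 in siPaf1, 0.310 and 0.638 in siCdc73 and 0.873 in siSki8. In each assay both siPaf1 libraries lay above all others, though few reads stood behind the low values. The siPaf1 over siCdc73 difference was 2.81 ± 0.58 (adjusted p = 0.0051) in 3′READS and 3.01 ± 0.68 (adjusted p = 0.0015) in RNA-seq. Zfp521, its close paralogue, had a difference of 2.08 in RNA-seq (adjusted p = 0.0048) and of 0.87 in 3′READS (adjusted p = 0.36), where nearly all of its reads lay at intronic sites. Zfp521 too reached the read threshold only through siPaf1 reads. Zfp568, which passed the read threshold only through siCdc73 reads, went the other way. Its difference was -2.83 ± 0.53 (adjusted p = 0.0029) in 3′READS, mostly from its intronic reads, and -1.08 (adjusted p = 0.0029) in RNA-seq.

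The assays could be set side by side for the 95 genes in both tables. In siPaf1, 14 of them rose in 3′READS and 25 in RNA-seq, and 10 were shared (71.4% and 40% of the lists), among them Zfp7, Zfp36, Zfp146, Zfp260, Zfp410, Zfp423, Zfp655 and Zfp809. Only Zfp367 fell in both, of 3 and 4. In siCdc73, 8 rose in both (57.1% of 14 and 80.0% of 10) and 9 fell in both (69.2% of 13 and 40.9% of 22). The log2 differences had the same sign in 72 of 95 genes in siPaf1 and 75 of 95 in siCdc73, with Pearson's r of 0.78 and 0.75 across genes. These correlations are descriptions over 95 genes, which are not independent replicates. The shared counts and correlations were not set beside those of all genes. They therefore do not show a likeness between assays particular to these genes.

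Other members are known as regulators of transcription. Zfp703, a corepressor of the same small family as Zfp503, had 51.0 and 62.9 CPM in siCtrl, 111 and 116 in siPaf1, 127 and 83.8 in siCdc73 and 53.0 in siSki8 in 3′READS. The siPaf1 and siCdc73 libraries all lay above siCtrl and siSki8, by 0.99 (adjusted p = 0.026) and 0.87 (adjusted p = 0.042), while in RNA-seq the differences were 0.39 (adjusted p = 0.23) and 0.53 (adjusted p = 0.081). Zfp148, which binds GC-rich promoters, fell in siCdc73 in both assays (-1.0, adjusted p = 0.025, and -0.61, adjusted p = 0.041), from 26.3 and 28.0 CPM to 15.0 and 12.1 in 3′READS. Zfp281, a GC-box factor of pluripotent cells, rose by 0.68 in siPaf1 in RNA-seq (adjusted p = 0.036) but had a difference of 0.07 in 3′READS. Zfp143, Zfp217, Zfp238, Zfp335 and Zfp384 were not called at the gene level in any knockdown against siCtrl in either table that listed them. Zfp161 and Zfp263 were not among the 205.

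Of the members that act on RNA, ribosomes or the spindle, Zfp622, which is needed for maturation of the large ribosomal subunit, had 163 and 260 CPM in siCtrl, 237 and 253 in siPaf1, 446 and 522 in siCdc73 and 346 in siSki8 in 3′READS. The siCdc73 libraries were the highest, by 1.22 ± 0.27 over siCtrl (adjusted p = 0.0053), and siPaf1 was 0.97 below siCdc73 on the log2 scale (log2 difference -0.97, adjusted p = 0.027). Zfp593, a factor of ribosomal subunit export, fell by 0.94 in siPaf1 in RNA-seq (adjusted p = 0.035), a call lost without either siCtrl library and without siPaf1 batch 2. Zfp207 rose in RNA-seq in siPaf1 (0.75, adjusted p = 0.013) and siCdc73 (0.63, adjusted p = 0.029), with 313 and 353 CPM in siCtrl against 436 to 702 in the 4 knockdown libraries. Its 3′READS differences of 0.50 and 0.62 were not called (adjusted p = 0.2 and 0.11). Zfp330 rose in 3′READS in both (0.95, adjusted p = 0.039, and 1.16, adjusted p = 0.012), from 145 and 170 CPM to 255 to 442. Zfp106, Zfp326, Zfp346, Zfp598 and Zfp830 were not called at the gene level in any knockdown against siCtrl, and Zfp638 was not among the 205.

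Of the silencing factors, Zfp809, a KRAB protein known to silence murine leukaemia provirus through its primer binding site, rose in siPaf1 in both assays. Its 3′READS levels were 2.40 and 1.23 CPM in siCtrl, 6.07 and 7.67 in siPaf1, 6.51 and 2.20 in siCdc73 and 2.16 in siSki8, so one siCdc73 library reached the siPaf1 range. The siPaf1 difference was 1.94 ± 0.54 (adjusted p = 0.02) in 3′READS and 0.73 (adjusted p = 0.045) in RNA-seq, where siPaf1 had 30.9 and 41.2 CPM against 18.4 and 24.6 in siCtrl. Zfp932, which acts on endogenous retroviruses, rose by 1.34 in siPaf1 (adjusted p = 0.035). Zfp57 and Zfp961 were not among the 205.

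Of 17 genes of the KRAB corepressor machinery listed in 3′READS, 1 rose and 3 fell in siPaf1 (9.74% and 9.08% of all genes tested did), 4 rose and 2 fell in siCdc73 (10.8% and 11.8%), and none was called in siSki8. RNA-seq listed 10, with 1 that rose and 3 that fell in siPaf1 (16.3% and 16.2% of all genes) and 3 and 3 in siCdc73 (19.4% and 20.5%). Trim28, the corepressor that KRAB domains bind, had 803 and 559 CPM in siCtrl, 886 and 887 in siPaf1, 1242 and 917 in siCdc73 and 540 in siSki8, with siPaf1 and siCdc73 not called (0.41, adjusted p = 0.3, and 0.67, adjusted p = 0.085). Setdb1, the histone methyltransferase that Trim28 recruits, was not called either (-0.20 and -0.27). The genes that fell in both were those of maintenance DNA methylation: Dnmt1 by 1.38 (adjusted p = 0.0033) and 1.19 (adjusted p = 0.0069), and Uhrf1 by 2.16 (adjusted p = 0.00047) and 2.55 (adjusted p = 0.00022). Cbx5, a heterochromatin protein gene, fell by 1.06 in siPaf1 (adjusted p = 0.015). Chd4, the known target of Zfp410, had 44.1 and 46.8 CPM in siCtrl, 45.6 and 58.9 in siPaf1, 73.8 and 108 in siCdc73 and 87.9 in siSki8. It rose in siCdc73 (0.97, adjusted p = 0.018) and was not called in siPaf1 (0.19, adjusted p = 0.67).

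Site use in 3′UTRs was taken as the log2 ratio of reads at the proximal over the distal of the 2 most used sites, so that a higher value means a shift to the shorter 3′UTR. This could be measured in 117 of the 205 genes and in 4567 genes in all. A site was used only if it held at least 5% of its gene's reads over all 7 libraries together. Reads of the knockdown libraries could thus bring in a site that was rare in siCtrl, here and over all genes. The median difference from siCtrl was 0.29 in siPaf1, 0.37 in siCdc73 and 0.38 in siSki8, close to the medians over all 4567 genes (0.27, 0.37 and 0.33). The edgeR test without the batch term called none of the 117 and 0.0% of all genes. An unadjusted p under 0.05 was reached by 6 members upwards and 0 downwards in siPaf1 (3.7% and 1.31% of all genes). It was reached by 5 and 1 in siCdc73 (3.61% and 0.591%), and by 2 and 0 in siSki8 (1.16% and 0.109%). With the batch term 5 members shifted to the proximal site in siPaf1 (5.1% of all genes did) and 0 to the distal site (1.69%). In siCdc73 3 shifted to the proximal site (3.88% of all genes) and 0 to the distal site (0.416%), and in siSki8 none shifted (0.307% and 0.0%). Between siPaf1 and siCdc73 no member was called (0.569% of all genes used the proximal site more in siPaf1 and 1.51% the distal site). Of the 5 in siPaf1 only Zfp871 was called with siCtrl batch 1 left out, only Zfp238 and Zfp503 with siCtrl batch 2 left out, and only Zfp503 with siPaf1 batch 2 left out. None of the 3 in siCdc73 was called with any one siCtrl or siCdc73 library left out.

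Zfp871 had 0.763% and 0.840% of these reads at the proximal site in siCtrl, 16% and 24.3% in siPaf1, 9.46% and 3.38% in siCdc73 and 2.03% in siSki8. The siPaf1 libraries were the highest and the siCtrl libraries the lowest, a log2 shift of 4.11 ± 0.71 (adjusted p = 7.5e-06) between sites 7329 bases apart. Zfp503, a corepressor of developing nervous tissue, had 0.658% and 1.50% in siCtrl, 17.3% and 9.02% in siPaf1, 9.27% and 4.23% in siCdc73 and 2.21% in siSki8. Again siCtrl lay under every knockdown library, by 2.85 ± 0.57 in siPaf1 (adjusted p = 0.00015) and 1.81 ± 0.58 in siCdc73 (adjusted p = 0.04998). The proximal sites of Zfp871 and Zfp503 held under 5% in siCtrl and passed the site rule through knockdown reads. Their upward calls thus lean on the libraries that chose the sites. Zfp238, a repressor known to act on Id genes in myogenesis, had 6.58% and 1.69% in siCtrl, 58.5% and 22.1% in siPaf1, 33.3% and 0% in siCdc73 and 11.3% in siSki8. The siCdc73 libraries of Zfp238 fell on both sides of siCtrl, and the siPaf1 shift was 3.44 ± 0.80 (adjusted p = 0.0017). Zfp326, a subunit of a complex that links elongation with splicing, went from 6.48% and 9.33% to 16.7% and 29.0% in siPaf1 (1.71 ± 0.56, adjusted p = 0.043), and Zfp191 from 90.9% and 90.6% to 95.2% and 98.2% (1.71, adjusted p = 0.02).

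In siCdc73, Zfp609, whose human counterpart gives a circular RNA of proliferating myoblasts, had 78.6% and 85.9% at the proximal site, against 23.8% and 25.6% in siCtrl, 58.7% and 53.1% in siPaf1 and 42.2% in siSki8. The groups did not overlap, and the siCdc73 shift was 3.47 ± 1.03 (adjusted p = 0.028) over 3875 bases, while siPaf1 gave 1.72 (adjusted p = 0.36). Zfp592 had 98.9% and 96.8% in siCdc73 against 92.3% and 70.0% in siCtrl (2.93 ± 0.84, adjusted p = 0.02). Zfp260 used its proximal site for 65.2% and 36.4% of reads in siCtrl, 66.2% and 70.2% in siPaf1, 68.4% and 78.5% in siCdc73 and 59.0% in siSki8. It was not called, and siCtrl batch 1 lay close to the knockdown libraries. The most read member, Zfp706, followed the batch, with 66.2%, 63.2% and 55.2% in batch 1 and 22.3%, 22.3%, 20.4% and 23.7% in batch 2.

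Use of intronic and internal exon sites against 3′ exon sites could be measured in 38 members, of 1766 genes in all. The same 5% rule over all libraries together chose the sites. Without the batch term edgeR called none of the 38. Of all genes, 2.21% shifted upstream and 0.17% downstream in siPaf1, and 4.02% and 0.113% did in siCdc73. An unadjusted p under 0.05 was reached by 4 members upwards and 0 downwards in siPaf1 (16.8% and 3.51% of all genes) and by 4 and 0 in siCdc73 (17.8% and 2.27%). With the batch term 3 members shifted upstream in siPaf1 (18.9% of all genes did, and 4.08% downstream) and 2 in siCdc73 (20.4% and 2.77%), none downstream and none in siSki8 (0.0566% each way). Between siPaf1 and siCdc73 none was called (1.42% and 3.68%). The members' medians were 0.33, 1.04 and 0.12 in siPaf1, siCdc73 and siSki8, against 0.62, 0.82 and -0.19 over all 1766 genes.

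Zfp52, a KRAB gene with 14 fingers (chr17:21672503-21699565, plus strand), had 10.6% and 8.14% of its reads upstream of the last exon in siCtrl, 55.8% and 75.2% in siPaf1, 67.4% and 52.7% in siCdc73 and 18.4% in siSki8. The siPaf1 and siCdc73 libraries overlapped each other and lay far above the rest. The log2 shift was 3.97 ± 0.77 in siPaf1 (adjusted p = 6.7e-06) and 3.58 ± 0.76 in siCdc73 (adjusted p = 5.1e-05). Without the batch term the adjusted p values were 0.054 and 0.058, and the blocked calls held with any single library left out. Of its intronic sites only the one printed above passed the 5% rule and entered these percents. Another, with 4.33% of the gene's reads, was left out. The printed site lay 3343 bases from the start of the model and ahead of the finger codons. It had 7 and 7 reads in siCtrl, 86 and 164 in siPaf1, 64 and 195 in siCdc73 and 19 in siSki8.

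Zfp410 had 0% and 2.63% of its reads upstream in siCtrl, 37.1% and 10.2% in siPaf1, 21.4% and 5.24% in siCdc73 and 5.61% in siSki8. Every knockdown library was above siCtrl, and siPaf1 was called (2.45 ± 0.72, adjusted p = 0.005). Its intronic site lay in intron 8 of 11, past the first finger codon, with 46 and 94 reads in siPaf1 and 0 and 3 in siCtrl. Zfp938 went from 0% and 1.04% to 12.3% and 15.0% in siPaf1 (2.66 ± 0.98, adjusted p = 0.034). The upstream sites of Zfp410 and Zfp938 held under 5% in siCtrl and passed the site rule through knockdown reads. Their calls thus lean on the libraries that chose the sites. Zfp236 went from 10.0% and 4.85% to 50.0% and 25.7% in siCdc73 (2.61 ± 0.89, adjusted p = 0.018). The call of Zfp236 was lost without any one of the siCtrl or siCdc73 libraries, that of Zfp938 without any one of the siCtrl or siPaf1 libraries, and that of Zfp410 without siCtrl batch 1 or either siPaf1 library.

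**Figure D5:**
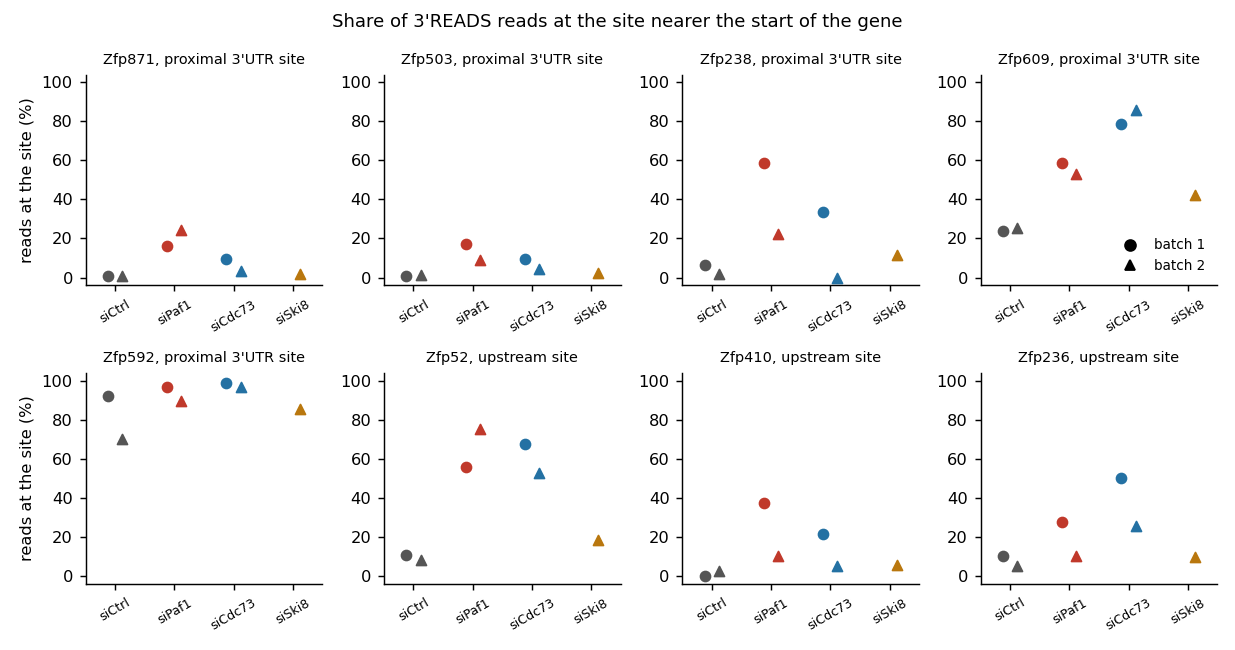
The percent of reads at the site nearer the start of the gene is on the y axis (0 to 100%) for 8 Zfp genes in every library, by group on the x axis; circles are batch 1 and triangles batch 2, each point being 1 library. Zfp52 stands at 52.7% to 75.2% in siPaf1 and siCdc73 against 10.6% and 8.14% in siCtrl, and Zfp609 is highest in siCdc73 (78.6% and 85.9%).

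Summed over all 205 members, intronic sites took 5.77% and 2.40% of reads in siCtrl, 4.70% and 3.96% in siPaf1, 5.70% and 2.78% in siCdc73 and 1.66% in siSki8, and siCtrl batch 1 was the highest. Zfp865 had 96.6% of its reads at 1 site in its last intron, 1024 and 288 of them in siCtrl. Without Zfp865, the share was 1.53% and 1.61% in siCtrl, 2.59% and 2.69% in siPaf1, 3.44% and 2.33% in siCdc73 and 1.21% in siSki8. All siPaf1 and siCdc73 libraries then lay above siCtrl and siSki8, an order that held only with Zfp865 left out, a choice made after its values were seen. Over all genes the intronic share was 2.04% and 1.70% in siCtrl, 2.80% and 2.59% in siPaf1 and 2.53% and 2.40% in siCdc73. In Zfp655, chosen after its values were seen, a site of intron 2 of 3 had 15 and 30 reads in siCtrl, 67 and 169 in siPaf1, 62 and 163 in siCdc73 and 14 in siSki8. These were 7.89% and 11.7% of its reads at upstream and 3′ exon sites in siCtrl, 16% and 24.0% in siPaf1, 18.3% and 16.3% in siCdc73 and 4.13% in siSki8, and Zfp655 was not called for upstream site use.

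Reads assigned upstream and antisense were found at 83 sites of 56 members. As a percent of the members' sense reads they came to 0.547% and 0.417% in siCtrl, 0.353% and 0.541% in siPaf1, 0.819% and 0.637% in siCdc73 and 0.396% in siSki8. The siCdc73 libraries were the highest, and the siPaf1 libraries overlapped siCtrl. Over all genes the same percent was 0.16% and 0.138% in siCtrl, 0.174% and 0.204% in siPaf1, 0.226% and 0.205% in siCdc73 and 0.141% in siSki8. The read numbers were small, between 127 and 401 per library.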

How the data were processed

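Total RNA of siRNA-transfected C2C12 cells was measured by RNA-seq and by 3′READS, with 7 libraries each. The authors used Bowtie2 (local alignment, mm9), kept unique alignments and deposited raw read counts: a count per poly(A) site for 3′READS reads with unaligned 5′ T bases, with gene and site type, and RNA-seq counts from stranded libraries for each RefSeq transcript, limited to coding regions where a gene is protein-coding, with RPKM values computed by the authors. Such counts miss changes outside the coding region. Here, 3′READS sites other than upstream antisense ones were summed per gene. RNA-seq counts were those of the transcript with the highest mean count of each gene symbol. Neither can separate near-identical copies or overlapping genes, and 9 sites of Zfp91 were also listed under an overlapping gene. RPKM values were used for levels in siCtrl only.

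Gene counts were tested with edgeR 4.0.16 (quasi-likelihood, TMM, genes filtered by expression, prior count 2) over all groups of an assay, without and with batch as a replicate block; DESeq2 1.42.0 was an alternative. Site use was tested with the same edgeR test on read numbers, as the interaction of site and knockdown with 1 coefficient per library. Log2 ratios with 0.5 added to each read number served only to compare the batches. P-values were adjusted by Benjamini-Hochberg over all genes tested. Batch 1 and batch 2 are the numbers that end the library titles. The deviations of same-numbered libraries from their group means correlated in every pair of groups. The r values were 0.54, 0.71 and 0.52 in 3′READS, and 0.65, 0.79 and 0.67 in RNA-seq. They were 0.52, 0.56 and 0.48 for 3′UTR sites and 0.37, 0.41 and 0.36 for upstream sites. The biological coefficient of variation was 0.515 without and 0.247 with the block in 3′READS, and 0.397 and 0.179 in RNA-seq. Depth was 5302728 to 14340927 reads in 3′READS and 2796693 to 8160386 counts in RNA-seq; counts of a few reads carry counting error beyond what the groups of 2 libraries show.

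The members, gene lists, the blocked fit as the source of calls and the comparison of siPaf1 with siCdc73 were chosen with earlier results of these data known. Named members are Zfp260, the highest and the threshold members, at most 5 per comparison and direction with the smallest blocked p that moved the same way in each batch, and members of known role. Alternatives were library size scaling, no filter, other read minimums, all sites, letter suffixes kept, pooled reads and each library left out. The strand setting of the counter is not given in the sources used here. The gene-level test was tested on simulated data and recovered most changed genes; the site test found few. Gene models are those of mm9 (GENCODE); sequences were read from mm9.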

Additional observations from a re-analysis of the deposited data

How the results depend on the processing

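In the edgeR fits without the batch term, with all libraries and the filters as described, no member was called. With the replicate block 40, 45 and 0 members were called in siPaf1, siCdc73 and siSki8 in 3′READS, 29, 32 and 5 in RNA-seq, 5, 3 and 0 for 3′UTR sites and 3, 2 and 0 for upstream sites, and 35 and 33 for siPaf1 against siCdc73 in 3′READS and RNA-seq. The block with library size alone gave 49 and 44 in 3′READS and 30, 33 and 5 in RNA-seq. DESeq2 without the block called 4 and 11 in 3′READS and 2 and 6 in RNA-seq, and the pooled 1.4-fold test with Fisher's exact p, which ignores the spread between libraries, 123, 117 and 75, and 47, 50 and 49; pooled Fisher's exact tests called 46, 33 and 26 for 3′UTR sites and 16, 18 and 3 for upstream sites. No filter on low RNA-seq counts gave 1 call in siPaf1 and 1 in siCdc73, letter suffixes kept 1 and 1 for upstream sites, and a mean of at least 50 reads 1 in siPaf1 for upstream sites. Shares of all genes are not given beside counts under library size alone, pooled reads, other filters or a library left out, here and for siSki8 above. Those counts show only how the calls depend on the setting, and not a trait of the members.

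Leaving out each library in turn without the block gave 0 to 0 calls in each comparison except upstream sites in siCdc73 (0 to 1). With the block the ranges were 7 to 51, 17 to 56 and 0 to 2 in 3′READS, 10 to 36, 13 to 48 and 0 to 16 in RNA-seq, 1 to 7, 0 to 4 and 0 to 0 for 3′UTR sites, and 1 to 3, 1 to 2 and 0 to 0 for upstream sites. The siPaf1 medians of members stayed above 0 (0.31 to 0.55 in 3′READS and 0.28 to 0.48 in RNA-seq). The siCdc73 medians ran from -0.20 to 0.034 in 3′READS and from -0.43 to 0.045 in RNA-seq, above 0 only without siCtrl batch 1 and without the block (-0.23 to -0.048 and -0.35 to -0.13 with it). The siSki8 median in 3′READS was 0.032 with the block, 0.065 with library size alone, 0.027 with both and 0.047 with pooled reads, and -0.056 to 0.072 when libraries were left out (-0.062 to 0.072 with the block). In RNA-seq it was 0.15 with the block and -0.033 to 0.19 without single libraries (0.076 to 0.21 with the block), and over all sites the upstream median in siSki8 was -0.045. The 3′UTR ratio of Zfp260 ran from -0.035 to 2.11 in siPaf1 with the block, and from -0.36 to 1.29 (-0.86 to 1.29 with the block) in siSki8. The cause of these changes was not tested. The siSki8 values rest on 1 library per assay, and low read numbers also limit the site results. The comparison of siPaf1 with siCdc73 was not refitted with single libraries left out; its values within each batch are given instead.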
